A study of Mus musculus with 9 samples.

Results

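The small leucine-rich proteoglycans are secreted proteins with a compact core of leucine-rich repeats, most of them carrying sulfated sugar chains. They coat collagen fibrils, set fibril diameter and spacing, and bind growth factors of the TGF-beta family, so in the liver they are read as part of the scar matrix that activated stellate cells lay down. They differ in what they bind. Decorin and biglycan carry chondroitin or dermatan sulfate and also act on cell surface receptors, asporin has a stretch of aspartates in place of a sugar chain, and fibromodulin, lumican and prolargin belong to a keratan sulfate class that binds collagen at other sites. The genes described are Dcn, Bgn, Lum, Aspn, Ogn, Fmod and Prelp, picked by symbol from the table of measured genes. All 7 were found among its 11051 genes, and 5 of them reached the level needed for a test, 1 FPKM in any 3 libraries.

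RNA was measured in hepatic stellate cells, the pericytes of the liver that become collagen-making myofibroblasts, grown in primary culture from C57BL/6 mice. The first group received exosomes, vesicles shed into medium, of KPC cells, and the second received exosomes of Panc02 cells, both lines of mouse pancreatic adenocarcinoma. The control group received exosomes of primary pancreatic duct epithelial cells of mice, so each contrast with it compares tumour exosomes with duct cell exosomes. Each group had 3 libraries, 9 in all, numbered 1 to 3, and no library without exosomes was analysed here. All groups were grown in serum depleted of exosomes, and each tumour source is 1 cell line. The labels do not state whether libraries of a group stem from separate cultures or mice, so a p-value measures only the spread between these samples, which may be technical.

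Values are FPKM, a measure per transcript length and per library, so levels of different genes can be set side by side. They show no steps of whole reads, so read depth is unknown, and the number of libraries limits the precision. Genes were tested with limma, a linear model of log2(FPKM + 1), and passed at an adjusted p under 0.05 over all tested genes. A second fit, called the replicate block, adds the replicate number to that model. Mitochondrially encoded genes held 33.6% of summed FPKM in KPC, 28.3% in Panc02 and 26.4% in control replicate 1, against 11.2 to 15.9% in the other 6 libraries. Of 13 stellate cell markers 5 were measured, and Acta2, the smooth muscle actin of myofibroblasts, lay at 379 to 499 FPKM in KPC, 440 to 568 FPKM in Panc02 and 299 to 341 FPKM in control cells. Lrat, Des, Reln, Gfap and Ngfr, markers of the quiescent cell, were not analysed here, so the label could be checked only against the activated state. Of the 5 measured stellate cell markers, the replicate block called 1 higher for KPC, and 1 higher and 1 lower for Panc02 exosomes. Of all genes the block called 0.588% higher and 1.09% lower for KPC exosomes. For Panc02 exosomes it called 1.85% higher and 2.39% lower. Of 10 portal fibroblast markers 6 were measured, with sums of 121 to 200 FPKM in KPC, 138 to 192 FPKM in Panc02 and 132 to 157 FPKM in control cells. Of these, Thy1 lay at 55.6 to 74.2 FPKM in KPC, 59.2 to 70.9 FPKM in Panc02 and 69.2 to 75.4 FPKM in control cells. Cd34 lay below control without overlap. It was at 30.1 to 35.1 FPKM in KPC, 26.7 to 33.6 FPKM in Panc02 and 38.4 to 44.1 FPKM in control cells. Fbln2 lay at 32.2 to 86.4 FPKM in KPC, 45.7 to 84.5 FPKM in Panc02 and 21.3 to 34.7 FPKM in control cells. Dpt lay at 1.99 to 3.43 FPKM in KPC, 2.21 to 3.42 FPKM in Panc02 and 1.54 to 1.93 FPKM in control cells. Gli1 lay at 0.383 to 1.78 FPKM in KPC, 0.867 to 1.86 FPKM in Panc02 and 0.514 to 0.715 FPKM in control cells. Mfap4, the 1 marker of that list that passed in limma and only for Panc02 exosomes, lay at 0.681 to 1.81 FPKM in KPC, 1.23 to 2.62 FPKM in Panc02 and 0 to 0.12 FPKM in control cells. No control library held 1 FPKM of Mfap4, so it reached the test only through tumour exosome libraries and its call carries no weight. With the block 1 of the 6 portal fibroblast markers passed higher and 1 lower for KPC exosomes. For Panc02 exosomes 2 passed higher and 1 lower, with any call of Mfap4 again given no weight. Of 8 mesothelial markers 3 were measured, with sums of 49.7 to 96.9 FPKM in KPC, 52.7 to 90.7 FPKM in Panc02 and 77.6 to 114 FPKM in control cells. Msln, which makes up most of that sum, lay at 47.3 to 94.5 FPKM in KPC, 45.4 to 87.6 FPKM in Panc02 and 76.7 to 112 FPKM in control cells. Krt8 lay the other way without overlap, at 1.7 to 1.93 FPKM in KPC, 2.14 to 6.54 FPKM in Panc02 and 0.127 to 1.27 FPKM in control cells. It did not pass without the replicate block (adjusted p = 0.641 for KPC and 0.107 for Panc02 exosomes from limma). With the block it passed for Panc02 exosomes and not for KPC exosomes. Krt18 overlapped between all groups. Of 7 cholangiocyte or duct cell markers 4 were measured, with sums of 364 to 383 FPKM in KPC, 368 to 382 FPKM in Panc02 and 385 to 424 FPKM in control cells. Spp1 makes up most of that sum, at 342 to 362 FPKM in KPC, 338 to 357 FPKM in Panc02 and 362 to 404 FPKM in control cells. Sox9 lay at 19.3 to 22.3 FPKM in KPC, 21.6 to 23.3 FPKM in Panc02 and 20.9 to 22.6 FPKM in control cells. Krt19 and Epcam did not exceed 3.89 FPKM in any library. Of 7 macrophage or leukocyte markers 3 were measured, with sums of 4.09 to 5.18 FPKM in KPC, 3.74 to 5.02 FPKM in Panc02 and 4.02 to 6.1 FPKM in control cells. Of 7 endothelial markers only Cdh5 was measured, at 1.26 to 1.33 FPKM in KPC, 1.33 to 1.5 FPKM in Panc02 and 0.984 to 1.27 FPKM in control cells. Of 7 hepatocyte markers 0 were measured. The part of other cell types in the results was not tested, and in bulk RNA fewer cells of a type and less RNA per cell cannot be told apart.

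The 7 genes did not move together. With exosomes of either tumour line, Aspn and Bgn lay higher than in control cells in every library, and Ogn and Dcn lay lower in every library. Of all tested genes 11.4% for KPC and 16.1% for Panc02 exosomes had groups without overlap in either direction. For Panc02 exosomes Aspn rose 1.47 and Bgn 0.91 on the log2 scale while Ogn fell by 1.19, where 1.01% of all genes passed. None of these 3 passed after quantile normalization, and each call was also lost when certain single libraries were left out. For KPC exosomes Aspn stood at 1.19, Bgn at 0.79 and Ogn at -0.89, none of which passed in limma, while all 3 passed with the replicate block and in replicates 2 and 3 alone. For KPC exosomes 0.328% of all genes passed in limma and 1.68% with the block. The number of genes that passed was 34 with all 9 libraries and no block, and 199 in replicates 2 and 3 alone. Aspn and Ogn are neighbours in 1 gene cluster, and their order was turned round: all 6 libraries with tumour exosomes held more Aspn than Ogn, and all 3 control libraries held more Ogn than Aspn.

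Because Aspn and Ogn lie close together, the upstream sequences of this cluster are shown first, with that of Bgn for comparison. On chromosome 13 of GRCm38 the order is Ecm2, Aspn, Omd and Ogn, all transcribed from the plus strand. Aspn (ENSMUSG00000021388.14, chr13:49544443-49567565) and Ogn (ENSMUSG00000021390.6, chr13:49608046-49624501) are 40.5 kb apart. Omd, the gene of osteomodulin, a keratan sulfate proteoglycan of bone, lies between them, 14.9 kb from Aspn and 15.2 kb from Ogn. The lines below give 250 bases before and 50 bases after each start site from RefSeq (GRCm38.p6), read 5′ to 3′ on the plus strand, which is the strand of all 4 genes. The windows are chr13:49544193-49544492 for Aspn, chr13:49582212-49582511 for Omd, chr13:49607765-49608064 for Ogn and chrX:73483351-73483650 for Bgn. Capitals mark matches on either strand to TATAAA (the TATA box motif), GGAATG (the core bound by Tead factors) or GGGCGG (the GC box motif). Whether any match works as such an element was not tested.
Aspn: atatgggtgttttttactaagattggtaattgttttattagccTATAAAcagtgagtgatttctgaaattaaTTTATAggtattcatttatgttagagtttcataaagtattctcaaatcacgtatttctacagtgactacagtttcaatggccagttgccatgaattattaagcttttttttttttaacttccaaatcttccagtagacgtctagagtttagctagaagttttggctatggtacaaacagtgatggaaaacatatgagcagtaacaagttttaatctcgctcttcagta
Omd: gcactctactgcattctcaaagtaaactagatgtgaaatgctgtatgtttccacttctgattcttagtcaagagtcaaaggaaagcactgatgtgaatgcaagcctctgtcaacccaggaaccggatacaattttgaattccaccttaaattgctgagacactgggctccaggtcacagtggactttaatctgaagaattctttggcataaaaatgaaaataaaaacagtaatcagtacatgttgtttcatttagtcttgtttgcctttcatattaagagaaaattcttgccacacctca
Ogn: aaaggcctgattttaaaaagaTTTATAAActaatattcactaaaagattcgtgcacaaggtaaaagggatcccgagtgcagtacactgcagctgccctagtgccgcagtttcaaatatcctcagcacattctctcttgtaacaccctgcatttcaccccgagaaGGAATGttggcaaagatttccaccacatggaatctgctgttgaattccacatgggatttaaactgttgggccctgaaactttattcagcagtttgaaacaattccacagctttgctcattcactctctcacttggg
Bgn: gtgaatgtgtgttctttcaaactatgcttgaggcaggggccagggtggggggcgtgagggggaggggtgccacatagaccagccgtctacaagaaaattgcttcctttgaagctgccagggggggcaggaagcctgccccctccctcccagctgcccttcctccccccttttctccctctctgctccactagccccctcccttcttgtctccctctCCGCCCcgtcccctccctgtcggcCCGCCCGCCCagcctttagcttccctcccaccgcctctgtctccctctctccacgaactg

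The windows differ in base composition. G and C made up 31.0% of the Aspn window, 37.7% of the Omd window and 42.3% of the Ogn window, against 63.7% of the Bgn window and a median of 52.7% over 32851 promoters of the table. CG pairs numbered 3 in Aspn, 1 in Omd, 4 in Ogn and 9 in Bgn, against a median of 7. TATAAA was found in Aspn and in Ogn, with first bases 207 and 178 bases before the start site in Aspn and 229 and 227 bases before it in Ogn, where the matches overlap on opposite strands. Of all promoters, 13.6% hold this motif.

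The other capitals mark 2 motifs. GGAATG was found once in the Ogn window, 86 bases before the start site, and 14.7% of all promoters hold it. GGGCGG was found 3 times in the Bgn window, all on the minus strand and starting 34, 10 and 6 bases before the start site, with the last 2 overlapping; 35.7% of all promoters hold it. The full Smad element GTCTAGAC was in none of these windows and in 0.213% of all promoters, and the AP-1 element TGANTCA was in none of them and in 7.81%. The Smad box CAGAC, present in 49.6% of promoters, matched none of the windows shown, but was found in those of Fmod and Prelp.

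**Figure D1:**
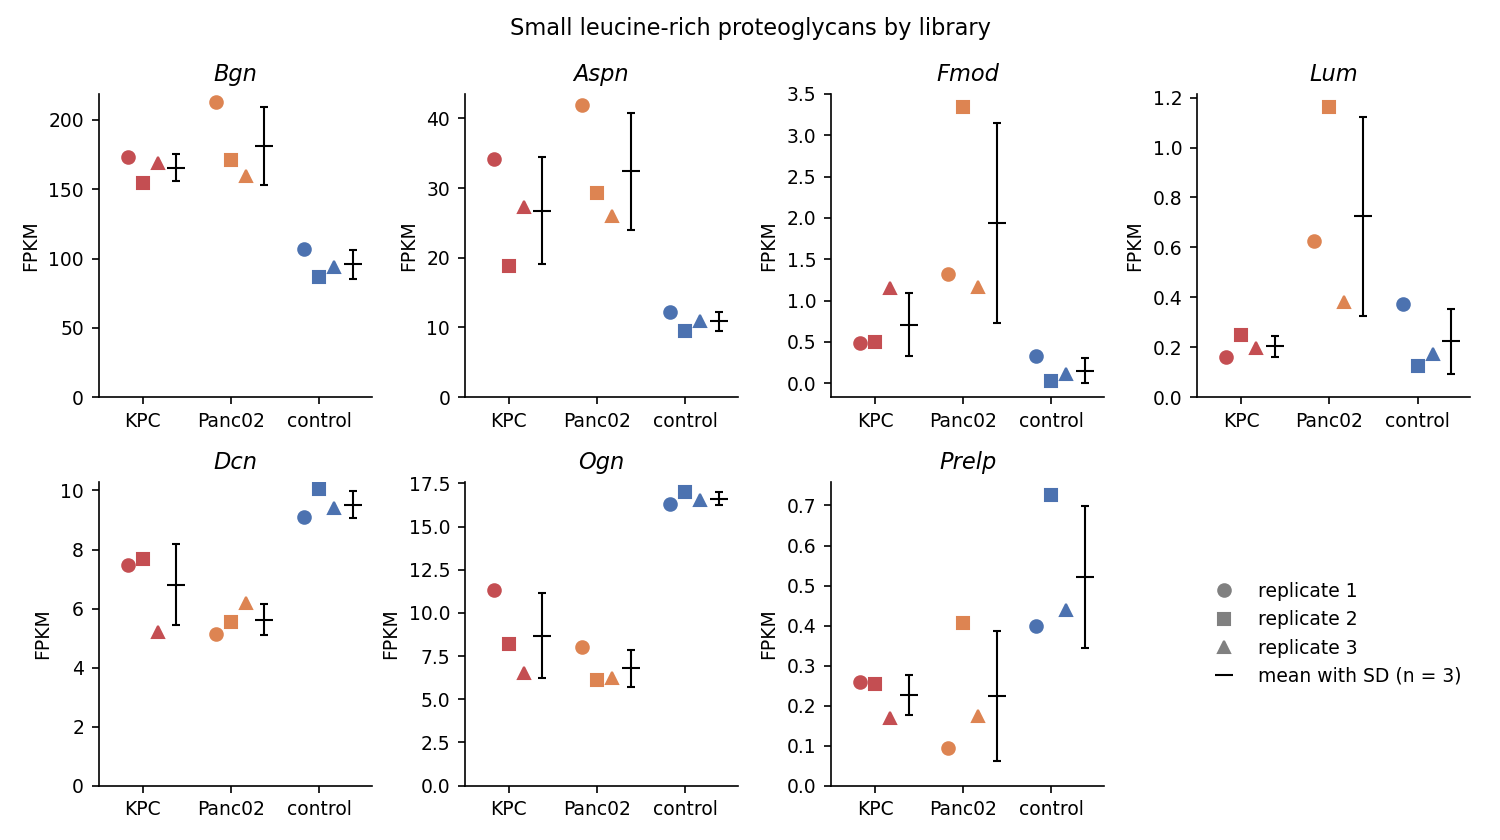
FPKM of the 7 small leucine-rich proteoglycans (one panel a gene, vertical axis from about 0) in the 9 libraries, grouped as KPC, Panc02 and control exosomes; symbols are replicate numbers, and the black bar is the group mean with SD (n = 3). Bgn and Aspn lie above the control libraries in all 6 tumour exosome libraries, and Dcn and Ogn below them in all 6.

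Biglycan was the most abundant member by far. Bgn (ENSMUSG00000031375.17, chrX:73483602-73495933, plus strand) encodes a proteoglycan that binds collagen and, when released, the receptors Tlr2 and Tlr4. Its levels in replicates 1, 2 and 3 were 173.6, 154.6 and 168.6 FPKM with KPC exosomes. They were 212.7, 171.0 and 159.5 FPKM with Panc02 exosomes and 107.1, 86.42 and 93.99 FPKM with control exosomes. The lowest tumour exosome library thus lay above the highest control library, and replicate 1 was the highest of its group in all 3 groups.

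Bgn averaged 181.1 ± 28.0 FPKM with Panc02 exosomes and 95.8 ± 10.5 FPKM with control exosomes (SD, n = 3 each). The log2 fold change was 0.91 (SE 0.13), with adjusted p = 0.0234 from limma and 0.00228 with the replicate block. With KPC exosomes Bgn averaged 165.6 ± 9.84 FPKM, and the log2 fold change of 0.79 (SE 0.13) had adjusted p = 0.0786 from limma and 0.00865 with the block. Without Panc02 replicate 1 the Panc02 call was lost at adjusted p = 0.0522, without Panc02 replicate 2 at 0.0876, and without control replicate 2 or 3 at 0.128 or 0.135. It was also lost with quantile normalization (0.0712), with library totals set equal without mitochondrial genes (0.0524) and with only Panc02 and control libraries in the fit (0.0592). Without Panc02 replicate 1, which enters only the estimate of the spread, the KPC contrast passed at 0.0462. In replicates 2 and 3 alone, where the mitochondrial share was 11.2 to 15.9%, the log2 fold changes were 0.83 for KPC (adjusted p = 0.00781 from limma) and 0.87 for Panc02 exosomes (0.00452).

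Of the members, asporin had the largest log2(FPKM + 1) fold change in both contrasts with control. Aspn encodes a relative of decorin that binds collagen at the same site and also binds TGF-beta, and in several tumours it is a marker of activated fibroblasts. It lay at 34.16, 18.79 and 27.34 FPKM in the KPC libraries, 41.95, 29.26 and 26.04 FPKM in the Panc02 libraries and 12.26, 9.471 and 10.91 FPKM in the control libraries. The groups did not overlap with control, though the KPC libraries themselves spread widely, with replicate 2 low and replicate 1 high. As for Bgn, replicate 1 was the highest library of every group.

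With Panc02 exosomes Aspn averaged 32.4 ± 8.41 FPKM, against 10.9 ± 1.40 FPKM with control exosomes. Its log2 fold change of 1.47 (SE 0.24) ranked 15 from the highest of 10368 tested genes, with adjusted p = 0.0321 from limma and 0.00228 with the replicate block. KPC cells averaged 26.8 ± 7.70 FPKM, and their log2 fold change of 1.19 (SE 0.24) ranked 10, with adjusted p = 0.137 and 0.00967 with the block. The Panc02 call was lost without any 1 of the 3 Panc02 libraries (adjusted p = 0.0853, 0.119 and 0.0752 without replicates 1, 2 and 3) or of the 3 control libraries (0.0868, 0.157 and 0.153). It was also lost without KPC replicate 3 (0.0548), with quantile normalization (0.0529) and with library totals set equal without mitochondrial genes (0.0527). The log2 value itself stayed between 1.27 and 1.61 when 1 library was left out, and was 1.36 in replicates 2 and 3 alone, where the KPC value was 1.08 (adjusted p = 0.0326 from limma). Of 2354 exon bases of Aspn, 7 are shared with Cenpp on the other strand, and whether reads were counted by strand is not given in the sources used here.

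Osteoglycin fell with Panc02 exosomes, where its neighbour Aspn rose. Ogn, also called mimecan, encodes a small matrix protein with short leucine-rich repeats that takes part in collagen fibril assembly. Its levels were 11.35, 8.202 and 6.533 FPKM in KPC libraries, 8.026, 6.091 and 6.25 FPKM in Panc02 libraries and 16.32, 17.02 and 16.52 FPKM in control libraries. Every library with tumour exosomes lay below the control libraries, which were close to each other. Unlike in Aspn and Bgn, replicate 1 was the highest library with tumour exosomes but the lowest with control exosomes.

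Ogn averaged 6.79 ± 1.07 FPKM with Panc02 exosomes and 16.6 ± 0.358 FPKM with control exosomes. The log2 fold change of -1.19 (SE 0.18) ranked 15 from the lowest of all tested genes, with adjusted p = 0.0251 from limma and 0.00444 with the block. For KPC exosomes the mean was 8.70 ± 2.45 FPKM and the log2 fold change -0.89 (SE 0.18), with adjusted p = 0.137 and 0.0261 with the block. Leaving out control replicate 1, 2 or 3 ended the Panc02 call at adjusted p = 0.0868, 0.129 or 0.133, as did leaving out Panc02 replicate 2 (0.12) or 3 (0.122) or KPC replicate 2 (0.0546), and so did quantile normalization (0.0587). Without KPC replicate 1, the KPC contrast passed at 0.0352 with a log2 fold change of -1.08. In replicates 2 and 3 alone the values were -1.09 for KPC (adjusted p = 0.00781 from limma) and -1.31 for Panc02 exosomes (0.00273).

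Decorin, like Ogn, lay lower with tumour exosomes, by less. Dcn (ENSMUSG00000019929.16, chr10:97479609-97518143, plus strand) encodes the proteoglycan that decorates type I collagen, holds TGF-beta away from its receptors and dampens the receptor kinases Met and Egfr. It stood at 7.491, 7.688 and 5.221 FPKM in KPC libraries, 5.133, 5.56 and 6.186 FPKM in Panc02 libraries and 9.113, 10.04 and 9.421 FPKM in control libraries. All 6 tumour exosome libraries lay below all 3 control libraries.

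Dcn averaged 5.63 ± 0.530 FPKM with Panc02 exosomes, 6.80 ± 1.37 FPKM with KPC exosomes and 9.52 ± 0.471 FPKM with control exosomes. Its log2 fold change was -0.67 (SE 0.14) for Panc02 exosomes, with adjusted p = 0.0803 from limma and 0.036 with the replicate block. For KPC exosomes it was -0.45 (SE 0.14), with adjusted p = 0.443 and 0.187 with the block, so neither KPC fit passed. Without KPC replicate 3 the KPC value was -0.29, and the Panc02 contrast, whose difference that library does not enter, passed at 0.031.

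Fibromodulin was scarce in control cells. Fmod (ENSMUSG00000041559.7, chr1:134037254-134048277, plus strand) encodes a keratan sulfate proteoglycan that binds collagen fibrils and lysyl oxidase. It lay at 0.4806, 0.5006 and 1.148 FPKM in KPC libraries, 1.324, 3.338 and 1.161 FPKM in Panc02 libraries and 0.3241, 0.0233 and 0.1113 FPKM in control libraries. No group overlapped another, in the order Panc02, KPC, control. Fmod reached the test only through the tumour exosome libraries, since no control library held 1 FPKM, so a gene with this pattern had to differ and its place among the tested members carries no weight.

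For Panc02 exosomes the log2 fold change of Fmod was 1.28 (SE 0.27), with adjusted p = 0.0808 from limma and 0.049 with the block, and for KPC exosomes it was 0.55, with adjusted p = 0.864 and 0.443 with the block. At this level the pseudocount sets the size: with 0.1 in place of 1 added to FPKM, the Panc02 value was 3.04 (adjusted p = 0.0531) and the KPC value 1.77 (adjusted p = 0.456). In replicates 2 and 3 alone the Panc02 contrast passed at 0.0444.

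Lumican and prolargin were too low to test. Lum (ENSMUSG00000036446.5, chr10:97565128-97572703, plus strand), a regulator of collagen fibril diameter, was at 0.1629, 0.2494 and 0.1969 FPKM with KPC exosomes, 0.6267, 1.163 and 0.3826 FPKM with Panc02 exosomes and 0.3724, 0.1257 and 0.1744 FPKM with control exosomes. The 3 Panc02 libraries lay above the other 6. Prelp (ENSMUSG00000041577.5, chr1:133910304-133921414, minus strand), which anchors basement membranes to connective tissue, was at 0.2585, 0.2529 and 0.1681 FPKM with KPC exosomes. It was at 0.09443, 0.4052 and 0.1731 FPKM with Panc02 exosomes and 0.3997, 0.7255 and 0.438 FPKM with control exosomes. KPC libraries lay below the control libraries, and Panc02 libraries overlapped them. Prelp shares 350 exon bases with the antisense gene Gm15851, and its reads cannot be assigned to a strand here. Lum lies 47.0 kb from Dcn and Prelp 115.8 kb from Fmod, and neither was tested.

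**Figure D2:**
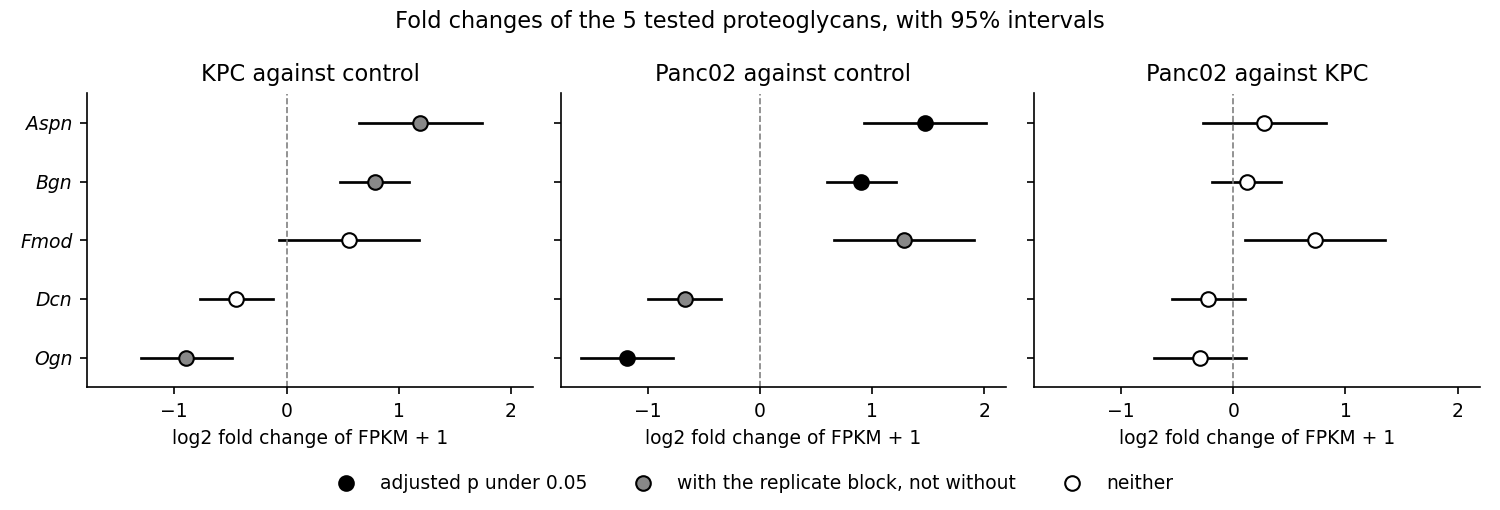
Log2 fold changes of FPKM + 1 (horizontal axis) with 95% intervals from limma for the 5 tested genes in 3 contrasts, each first group against the second; filled points passed adjusted p under 0.05 over all tested genes, grey points passed with the replicate block and not without it. Aspn, Bgn and Fmod lie right of 0 and Dcn and Ogn left of it against control exosomes.

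The members' calls were read against those of all 10368 tested genes, with Fmod counted but given no weight. For KPC exosomes limma called none of the 5, where 0.328% of all genes passed, 0.125% higher and 0.203% lower. At an unadjusted p under 0.05 it had 4 of the 5, where 6.54% of all genes did. With the replicate block 3 passed for KPC exosomes, Aspn and Bgn higher and Ogn lower, where 1.68% of all genes did, 0.588% higher and 1.09% lower. For Panc02 exosomes 3 members passed, 2 higher and 1 lower, where 1.01% of all genes did, 0.434% higher and 0.579% lower. With the block 5 passed, 3 higher and 2 lower, where 4.24% of all genes did, 1.85% higher and 2.39% lower.

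In both contrasts Aspn and Bgn lay above control without overlap, and Dcn and Ogn below it. Fmod also lay above control, but it reached the test only through tumour exosome libraries, so it carries no weight here. For KPC exosomes 11.4% of all genes had groups without overlap, 4.14% above and 7.31% below. For Panc02 exosomes 16.1% had them, 6.79% above and 9.3% below. Both contrasts use the same 3 control libraries, so they are not independent of each other. The median log2 fold change of all tested genes was -0.01 for KPC and 0.00 for Panc02 exosomes. FPKM is relative to its library, so these medians do not show whether RNA per cell shifted.

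The 2 tumour lines were also compared with each other. No member passed, nor did any of the 10368 genes in limma (0.0%) or with the replicate block (0.0%), and 86 genes (0.829%) had an unadjusted p under 0.05. The log2 difference of Panc02 over KPC was 0.28 for Aspn (95% interval -0.27 to 0.82), 0.12 for Bgn (-0.19 to 0.43), -0.22 for Dcn (-0.55 to 0.10) and -0.29 for Ogn (-0.70 to 0.11). Each of these intervals includes 0 and does not show that the lines act alike. Fmod was at 0.73 (0.11 to 1.35), with an unadjusted p of 0.0266 and an adjusted p of 1 in limma, and its 3 Panc02 libraries lay above its 3 KPC libraries, where 2.62% of all genes had groups that did not overlap. Leaving out 1 library moved these differences. That of Fmod was 0.41 without Panc02 replicate 2. That of Aspn was 0.47 when KPC replicate 1 was left out, 0.053 without KPC replicate 2 and 0.083 without Panc02 replicate 1. With KPC replicate 3 left out Ogn stood at -0.46 and Dcn at -0.38, while Ogn was at -0.10 without the first KPC library and Dcn at -0.14 without the second. That of Bgn was -0.0021 without Panc02 replicate 1, 0.071 without KPC replicate 2 and 0.20 without Panc02 replicate 3.

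A ratio of 2 members within a library does not depend on how that library was scaled. Where the first member lay above control and the second below it without overlap, their ratio had to separate the groups. Such a ratio describes the same values again and adds no separate support. The ratio of Aspn to Ogn was 3.01, 2.29 and 4.18 in KPC libraries, 5.23, 4.80 and 4.17 in Panc02 libraries and 0.751, 0.557 and 0.660 in control libraries. Libraries with tumour exosomes were all over 2, and control libraries all under 1. On the log2 scale the ratio averaged 1.62 ± 0.44 in KPC, 2.24 ± 0.17 in Panc02 and -0.62 ± 0.22 in control cells (SD, n = 3 each).

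Biglycan and decorin, the closest relatives of the family, also moved apart. The ratio of Bgn to Dcn was 23.2, 20.1 and 32.3 in KPC libraries, 41.5, 30.8 and 25.8 in Panc02 libraries and 11.8, 8.61 and 9.98 in control libraries. Bgn was the higher of the pair in every library. It was more so in each library with tumour exosomes than in any control library, which follows from the levels of Bgn and Dcn given above. The ratio of Bgn to Ogn ranged over 15.3 to 25.8 in KPC, 25.5 to 28.1 in Panc02 and 5.08 to 6.56 in control libraries.

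Members that moved the same way kept closer ratios. Bgn over Aspn lay at 5.08 to 8.23 in KPC, 5.07 to 6.12 in Panc02 and 8.62 to 9.12 in control libraries, so Aspn gained on Bgn within the pair. Ogn over Dcn lay at 1.07 to 1.51 in KPC, 1.01 to 1.56 in Panc02 and 1.70 to 1.79 in control libraries, so Ogn lost ground to Dcn. Neither pair overlapped between control and tumour exosome libraries.

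**Figure D3:**
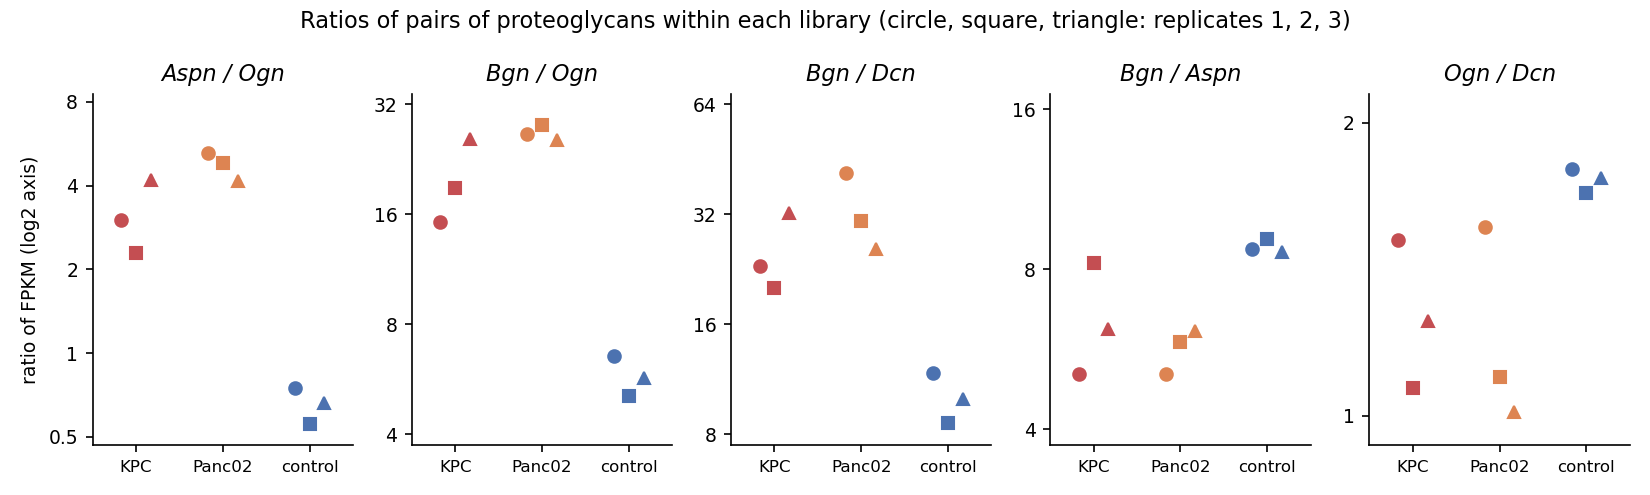
Ratios of FPKM of 5 pairs of members within each of the 9 libraries (vertical axes are log2, one panel a pair), grouped as KPC, Panc02 and control exosomes. Aspn over Ogn is over 2 in the 6 libraries with tumour exosomes and under 1 in the 3 control libraries, while Bgn over Aspn and Ogn over Dcn are highest in control libraries.

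The make-up of the transcripts of the 7 genes also differed. Summed over the 7 genes, libraries held 190.3 to 227.5 FPKM with KPC exosomes, 199.7 to 269.9 FPKM with Panc02 exosomes and 123.8 to 145.9 FPKM with control exosomes. Bgn made up 79.4% of the sum in KPC, 79.2% in Panc02 and 71.5% in control cells on average. Aspn made up 12.7% in KPC, 14.0% in Panc02 and 8.11% in control cells. Ogn made up 4.14% in KPC, 2.97% in Panc02 and 12.5% in control cells, and Dcn 3.28% in KPC, 2.52% in Panc02 and 7.17% in control cells. The sum therefore follows Bgn, and Ogn and Dcn were a small part of it in every group.

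By level, the order with KPC and with Panc02 exosomes was Bgn, Aspn, Ogn, Dcn and Fmod, and the libraries of Ogn and Dcn overlapped in both groups. In control cells the order was Bgn, Ogn, Aspn and Dcn, with Prelp, Lum and Fmod below them. There Ogn lay above Aspn and Dcn in every library, while Aspn (9.471 to 12.26 FPKM) and Dcn (9.113 to 10.04 FPKM) overlapped, so that pair was not ordered beyond its spread.

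**Figure D4:**
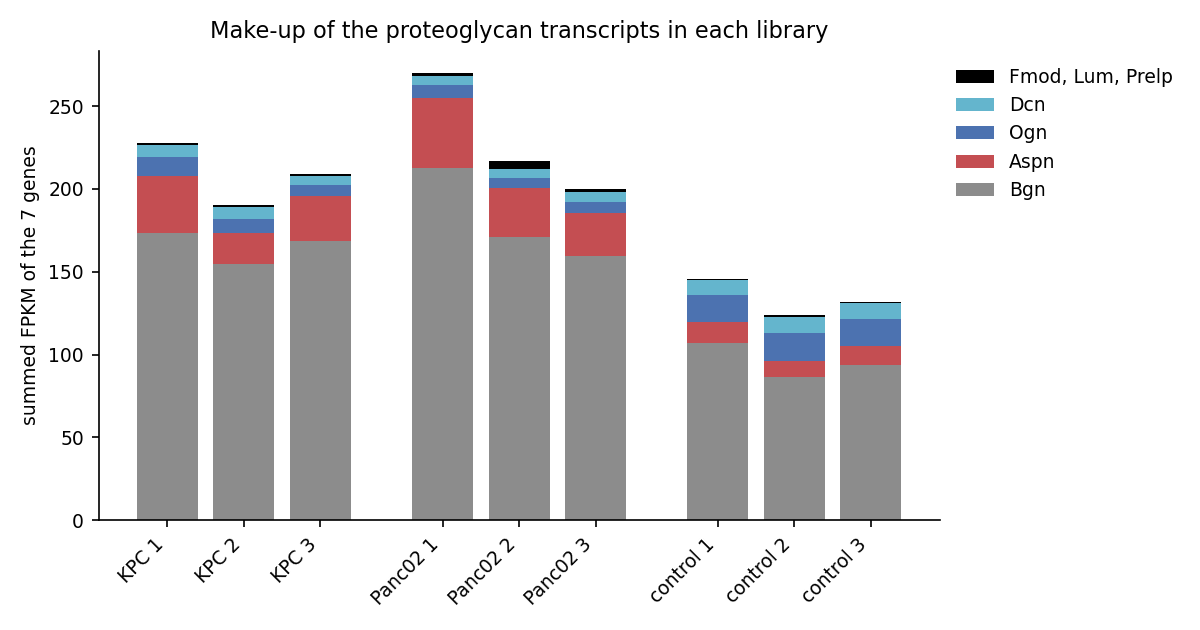
Summed FPKM of the 7 genes in each library (vertical axis from 0), stacked by gene, for KPC, Panc02 and control exosomes with replicate numbers. Bgn is the bulk of every bar; the Aspn band is wider and the Ogn and Dcn bands are narrower in the 6 libraries with tumour exosomes than in the 3 control libraries.

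In the chromosome 13 cluster the sign of the fold change differed between Aspn and the next gene, Omd. Omd was at 1.49, 0.825 and 0.626 FPKM in KPC libraries, 1.23, 0.554 and 0.779 FPKM in Panc02 libraries and 2.12, 1.19 and 1.44 FPKM in control libraries. The groups overlapped, and replicate 1 was the highest library of each. The log2 fold change was -0.39 for KPC exosomes (adjusted p = 0.942, and 0.115 with the block) and -0.48 for Panc02 exosomes (adjusted p = 0.516 from limma), and with the block the Panc02 contrast passed at 0.0371. Ecm2, 11.7 kb upstream of Aspn, was not analysed here. Cenpp, a centromere protein gene on the other strand that spans Aspn, Omd and Ogn, stood at -0.18 for KPC and -0.23 for Panc02 exosomes on the log2 scale and passed in neither contrast, with or without the block.

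**Figure D5:**
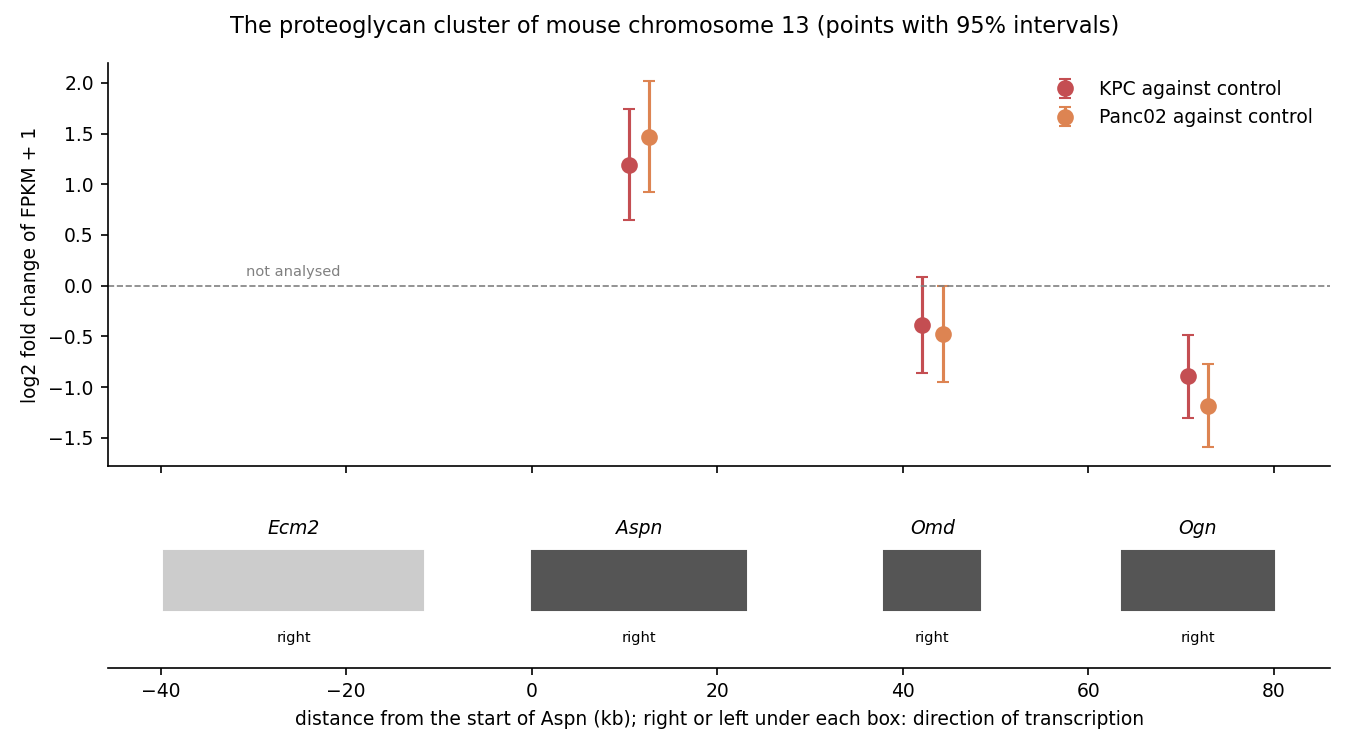
The proteoglycan cluster of chromosome 13 to scale, as distance from the start of Aspn in kb (lower panel; all 4 genes are transcribed to the right), with log2 fold changes of FPKM + 1 and 95% intervals from limma above each gene (upper panel). Aspn lies above 0 and Ogn below 0 for both KPC and Panc02 exosomes against control exosomes, with Omd between them.

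Further neighbours did not pass in limma. Nol8, Iars, Ippk and Bicd2 lay between -0.08 and 0.19 on the log2 scale in both contrasts. Btg2, the neighbour of Fmod and a brake on cell division, was at -0.48 for Panc02 exosomes (adjusted p = 0.655, and 0.0212 with the block). Of 11 further genes of the family, Omd, Tsku and Podnl1 were measured. Tsku (tsukushi, which binds BMPs) was at -0.21 for KPC and -0.20 for Panc02 exosomes, and Podnl1 (podocan-like) at 0.17 for KPC and 0.09 for Panc02 exosomes. Neither passed in either fit, and in both genes the groups overlapped and replicate 1 was the lowest library of each group.

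The enzymes that build the sugar chains were counted in the same way. Of 22 genes of linker, chondroitin sulfate and dermatan sulfate synthesis, 17 were tested and none passed in either contrast, where 0.328% of all genes passed for KPC and 1.01% for Panc02 exosomes, with medians of 0.08 for KPC and 0.17 for Panc02 exosomes. Chsy1, which polymerises chondroitin, was at 0.39 for Panc02 exosomes and passed with the block and not without it, at adjusted p = 0.0492. Chst11, a sulfotransferase of chondroitin, was at 0.34, B4galt7 of the linker at 0.48 and Csgalnact2, which starts the chain, at -0.24, and none of these passed in either fit.

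The other parts of the sugar machinery were measured in fewer genes. Their counts stand beside 0.328% of all genes that passed in limma for KPC and 1.01% for Panc02 exosomes. Of 8 keratan sulfate genes 3 were tested and none passed, with B4galt1 at 0.27, Chst2 at 0.37 and B3gnt2 at -0.08 for Panc02 exosomes. Of 11 genes that supply sugar nucleotides and sulfate 10 were tested and none passed with or without the block. There Slc26a2, a sulfate transporter, was at 0.27, Bpnt1 at 0.13, Slc35d1 at -0.13 and Uxs1 at -0.28.

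Among proteases that process or cleave the core proteins, none of 7 tested passed in limma. The share of all genes that passed was 0.328% for KPC and 1.01% for Panc02 exosomes. With the block, Bmp1, the procollagen C-proteinase that also trims the biglycan propeptide, passed for Panc02 exosomes at a log2 fold change of 0.54 (adjusted p = 0.0202, and 0.503 without the block). Adamts5, an aggrecanase, passed with the block in the other direction, at -0.54 (0.0222, and 0.0667 without it), and for KPC exosomes it was at -0.49 (0.0549 with the block). Adamts1 and Adamts4 were at 0.10 and 0.24 for Panc02 exosomes and passed in neither fit.

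Of 12 tested receptors that core proteins bind, 1 passed in limma, and for Panc02 exosomes alone. Over all genes 1.01% passed there, and 0.328% for KPC exosomes. Tlr4, the lipopolysaccharide receptor that soluble biglycan also engages, was at 8.998, 8.638 and 9.646 FPKM in KPC libraries, 8.066, 8.111 and 8.11 FPKM in Panc02 libraries and 11.83, 15.78 and 14.36 FPKM in control libraries. All libraries with tumour exosomes lay below the control libraries, the reverse of Bgn. It fell by 0.71 on the log2 scale for Panc02 exosomes (SE 0.11, adjusted p = 0.0272 from limma), and stood at -0.56 for KPC exosomes (adjusted p = 0.137, and 0.0414 with the block). The Panc02 call was lost with equal library totals (0.175), with only the 2 groups in the fit (0.0734), and without control replicate 2 (0.129) or 3 (0.155), KPC replicate 2 (0.0642) or Panc02 replicate 1 (0.0909), 2 (0.132) or 3 (0.123). Tlr2, the other toll-like receptor of biglycan, was at -0.47 for KPC and -0.38 for Panc02 exosomes, below control in every library, and passed in neither fit. Met, a decorin receptor, was at -0.47 and Itgb1, the common collagen receptor chain, at 0.23 for Panc02 exosomes, and neither passed.

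Of 9 tested growth factors and receptors bound by core proteins, only Ctgf passed in limma, in both contrasts. Among all genes 0.328% passed for KPC and 1.01% for Panc02 exosomes. Ctgf, a matricellular protein bound by decorin, was at 85.51, 95.94 and 114.1 FPKM in KPC libraries, 125.8, 139.0 and 138.0 FPKM in Panc02 libraries and 51.39, 48.73 and 49.13 FPKM in control libraries. The 3 groups did not overlap. It rose by 0.96 for KPC (SE 0.12, adjusted p = 0.0247 from limma) and by 1.41 for Panc02 exosomes (SE 0.12, adjusted p = 0.00284). The Panc02 call held under every alternative. The KPC call was lost with equal library totals (0.123) or with only the 2 groups in the fit (0.133), and without control replicate 1 (0.0841), 2 (0.151) or 3 (0.169), KPC replicate 2 (0.0751) or 3 (0.0626) or Panc02 replicate 2 (0.0639) or 3 (0.0683). Wisp1, a relative of Ctgf that binds decorin and biglycan, passed with the block and not without it, at 0.65 for KPC (adjusted p = 0.0496, and 0.393 without it) and 0.85 for Panc02 exosomes (0.011, and 0.105 without it). Tgfbr3, the TGF-beta co-receptor betaglycan, passed for Panc02 exosomes with the block and not without it, at -0.44 (0.0327, and 0.177 without it). Tgfb1, the main ligand that decorin and asporin bind, was at 0.10 for KPC and 0.22 for Panc02 exosomes, with overlapping groups, and Tgfb3 was at 0.07 for KPC and 0.39 for Panc02 exosomes.

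The fibril collagens, on which these proteoglycans sit, and Lox did not pass in limma in either contrast. Their medians were 0.43 for KPC and 0.69 for Panc02 exosomes over 11 tested genes. In limma 0.328% of all genes passed for KPC and 1.01% for Panc02 exosomes. With the block 2 of the 11 rose for KPC exosomes, where 0.588% of all genes did, and 6 for Panc02 exosomes, where 1.85% did. Col1a1, the main chain of type I collagen, was at 136.0, 186.3 and 240.3 FPKM in KPC libraries, 181.2, 245.9 and 228.2 FPKM in Panc02 libraries and 92.96, 112.8 and 114.1 FPKM in control libraries. Both groups with tumour exosomes lay above control, and replicate 1 was the lowest library of each group, where Bgn and Aspn were highest in it. The log2 fold change was 0.78 for KPC (adjusted p = 0.302, and 0.0224 with the block) and 1.02 for Panc02 exosomes (0.0755, and 0.00407 with the block). Col5a2, a nucleator of fibrils, was at 0.63 for KPC and 0.90 for Panc02 exosomes and passed in both contrasts with the block, at 0.0476 for KPC and 0.00756 for Panc02 exosomes. For Panc02 exosomes Col3a1 was at 0.75 and Lox, which cross-links collagen, at 0.69, and both passed with the block and not without it (Col3a1 at 0.0134 and Lox at 0.0171). Col1a2 was at 0.37 and passed in neither fit.

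Against Col1a1 in the same library, Bgn and Aspn overlapped between the groups, and Ogn and Dcn did not overlap with control. The ratio of Bgn to Col1a1 overlapped between all groups, at 0.702 to 1.28 in KPC, 0.696 to 1.17 in Panc02 and 0.766 to 1.15 in control libraries. That of Aspn to Col1a1 overlapped too, at 0.101 to 0.251 in KPC, 0.114 to 0.232 in Panc02 and 0.0840 to 0.132 in control libraries. The ratio of Ogn to Col1a1 was 0.0272 to 0.0834 in KPC, 0.0248 to 0.0443 in Panc02 and 0.145 to 0.175 in control libraries. The ratio of Dcn to Col1a1 was 0.0217 to 0.0551 in KPC, 0.0226 to 0.0283 in Panc02 and 0.0826 to 0.0980 in control libraries. In those 2 ratios every library with tumour exosomes lay below every control library. This had to follow, since Col1a1 lay above control without overlap and Ogn and Dcn below it.

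Of 10 other proteoglycans tested none passed in limma, where 0.328% of all genes passed for KPC and 1.01% for Panc02 exosomes, and their difference from the 7 genes was not tested. Vcan (versican), Hspg2 (perlecan) and Agrn (agrin), the 3 tested of 12 other secreted proteoglycans, were at 0.04, 0.12 and 0.11 for Panc02 exosomes, with overlapping groups in both contrasts. Of 7 tested cell surface proteoglycans, Cspg4, the NG2 proteoglycan of pericytes, passed for Panc02 exosomes with the block and not without it, at 0.91 (adjusted p = 0.0195, and 0.439 without it). The syndecans Sdc1, Sdc2 and Sdc3 were at 0.23, -0.15 and 0.40 and passed in neither fit.

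Outside the family, the genes whose log2(FPKM + 1) followed each member most closely over the 9 libraries were found by Pearson's r, given as a description. The r of a member that differs between groups is largely the r of that group difference, and the points share library and replicate number. Aspn was closest to Inhba (0.987), a subunit of activin, and Ldlrad4 (0.986), and Bgn to Havcr2 (0.984) and Ldlrad4 (0.981). Ogn was closest to Mndal (0.99) and Dio2 (0.986), a deiodinase that activates thyroid hormone, and Dcn to Ssbp2 (0.989) and Ckap2 (0.972). Fmod was closest to Bpifc (0.966) and Iars (0.94).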

How the data were processed

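The authors deposited FPKM values for 9 libraries in 1 table, and these were used as they stand. Per the submitters' processing notes, cutadapt, HISAT2 2.0.4 and StringTie 1.2.3 were used with GRCm38; no annotation or strand setting is given in the sources used here. FPKM is relative, so a large transcript class such as mitochondrial RNA lowers the values of all other genes in its library.

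Of 11051 genes, 10368 reached 1 FPKM in 3 or more libraries and were tested on log2(FPKM + 1). The tool was limma 3.58.1 (R 4.3.3), whose prior variance was let follow the mean level, with all 9 libraries in 1 fit. Tests were two-sided, with Benjamini-Hochberg adjustment over all tested genes at 0.05; fold changes on this scale understate changes of low genes. The steps were tested on simulated data. Python 3.11.15, pandas 2.3.3 and matplotlib 3.10.9 made the tables and figures.

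The members, gene lists and tests were chosen with earlier results of these data known. The text names all members and measured relatives, the genes beside them, up to 4 genes of each list with the lowest p for Panc02 exosomes plus Tgfb1, Bmp1, Col1a1, Col1a2 and Tlr4, and the 2 genes most like each tested member. No set test was run.

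The labels give replicate numbers without saying what they stand for. After removal of group means, the r across genes between same-numbered libraries was 0.639 to 0.81 (number 1) and 0.243 to 0.517 (numbers 2, 3). A replicate block was therefore fitted, and its values are given where it changes a call. Numbers 2 and 3 also correlated with each other, at 0.298 to 0.614, so the pairing rests mainly on number 1.

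Gene positions match GENCODE M21 (GRCm38); promoter windows are from RefSeq, found for 5 of 7 members. Alternatives were another pseudocount, no filter, other scalings, fits of the groups compared alone, another prior, the block, replicates 2 and 3 alone and each library left out.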

Additional observations from a re-analysis of the deposited data

How the results depend on the processing

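Against control exosomes, none of 179 log2 fold changes of the 5 tested members reversed over 18 alternatives. Several alternatives leave the fold change as it is and so could not reverse it. These are no filter, the block, only the 2 groups in the fit, another prior and leaving out a library of the group not compared. For them only the adjusted p can move. For KPC exosomes the count of members called, 0 as reported, was 3 with the replicate block, 3 in replicates 2 and 3 alone and 0 to 1 when 1 library was left out. For Panc02 exosomes it was 3 as reported, 5 with the block, 1 with library totals set equal without mitochondrially encoded genes (Ogn), 0 with quantile normalization and 0 to 3 when 1 library was left out. For Panc02 against KPC it was 0 under every alternative. The counts over all genes, and so the shares set beside the members, moved too. For KPC exosomes (34 as reported) the count was 174 with the block, 199 in replicates 2 and 3 alone, 6 with equal library totals, 0 with only the 2 groups in the fit and 0 to 34 when 1 library was left out, with 0 without any 1 control library. For Panc02 exosomes (105 as reported) it was 440 with the block, 488 in replicates 2 and 3 alone, 46 with equal library totals and 23 to 126 when 1 library was left out, the lowest without control replicate 3. For Panc02 against KPC (0 as reported) it was 8 in replicates 2 and 3 alone and 1 without KPC replicate 2 or Panc02 replicate 1. With 3 libraries a group, calls near the threshold depend on single libraries; the cause was not tested. Members under 1 FPKM (Lum, Prelp and Fmod in control cells) are limited by an unknown depth.

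Of the other values, Bgn for Panc02 against KPC ranged from -0.0021 (without Panc02 replicate 1) to 0.20 when 1 library was left out. Under the same step Tsku ranged from -0.45 to 0.078 for KPC exosomes. For Panc02 exosomes Tsku ranged from -0.53 to 0.40, Podnl1 from -0.019 to 0.27, Agrn from -0.077 to 0.42, B3gnt2 from -0.22 to 0.15, Hspg2 from -0.11 to 0.48 and Vcan from -0.055 to 0.18. Replicates 2 and 3 alone turned Tsku to 0.30, B3gnt2 to 0.064, Uxs1 to 0.052 and Vcan to -0.086 for Panc02 exosomes. None of these reversed values passed the test.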
